A study of Homo sapiens with 22 samples.

Results

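Untreated SU-DHL4 cells were compared with untreated SU-DHL6 cells. The groups were chosen by the array titles and held 2 arrays each, 4 of the 22 arrays of the series. Both are established human lines grown from diffuse large B-cell lymphoma (DLBCL), an aggressive tumour of mature B cells, and the labels call both B-cell lymphoma cells, give no genotype and name no drug for these arrays. A single untreated array of HT, a further DLBCL line, is shown beside them, and the 2 untreated arrays each of the Burkitt lymphoma lines Daudi, Namalwa and Raji serve as outside lines. The arrays of the same 2 lines after combined 5-aza-2′-deoxycytidine, which blocks DNA methyltransferases, and trichostatin A, which blocks histone deacetylases, are used once, 2 arrays per line. For those arrays the titles give 5 µM of the first drug and the protocol gives 3 µM, in both cases over 6 days with 625 nM trichostatin A for the last 24 h. A cell line is 1 tumour in culture, so the comparison is one of 2 lines and not of kinds of lymphoma.

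RNA was read on the Affymetrix HG-U133A array as log2 expression values made by robust multi-array averaging (RMA), on which a difference of 1 is a 2-fold difference. Of the 22283 probe sets, 19065 carry 1 gene symbol and stand for 11963 genes. A gene is given here by its probe set with the highest mean level over all arrays. Differences are SU-DHL4 minus SU-DHL6, tested with limma, and a gene was called at a Benjamini-Hochberg adjusted p under 0.05 over all 19065 probe sets.

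A mature B cell carries a B-cell receptor made of immunoglobulin heavy and light chains with CD79A and CD79B, and it shows antigen to T cells on MHC class II molecules, encoded on chromosome 6. In the germinal centre, B cells mutate and switch their immunoglobulin genes under factors such as BCL6. IRF4 and the NF-kB factors mark cells that leave this stage or receive activating signals. Both lines are usually classed with the germinal centre form of DLBCL.

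All 4 arrays carried the B-cell markers. CD79A, CD79B, CD22, MS4A1 and PAX5 lay between 9.64 and 12.51, and 1 of these 5 genes, CD79B, was called (difference -0.65), a call lost without either SU-DHL4 array (adjusted p = 0.115 and 0.17) or the second SU-DHL6 array (adjusted p = 0.153). Of 11 T-cell, 8 natural killer, 11 myeloid, 4 erythroid and 6 epithelial marker genes, 0 were called with limma, and 2, 2, 0, 0 and 1 had an unadjusted p under 0.05. The myeloid markers reached at most 7.25 in SU-DHL4 and 7.29 in SU-DHL6, and the epithelial ones 6.49 and 6.69. Among T-cell markers LCK, a kinase that B-cell lines also express, was bright, with 10.04 and 10.11 in SU-DHL4 and 10.94 and 10.56 in SU-DHL6, while CD3D lay between 6.38 and 6.82 on all 4 arrays. Of 7 fibroblast markers, DCN and THY1 were called higher in SU-DHL4, and COL1A1, COL1A2, COL3A1, LUM and PDGFRB were not called. The summed log2 level of these 7 genes was 49.8 and 49.5 in SU-DHL4 and 45.9 and 45.5 in SU-DHL6. That gap came from DCN and THY1 alone, which differed by 3.06 and 1.46, as the other members lay between -0.35 and -0.03.

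The SU-DHL4 duplicates were closer to each other than the SU-DHL6 duplicates. Pearson's r across probe sets was 0.991 between the SU-DHL4 arrays and 0.980 between the SU-DHL6 arrays, and 56 and 369 probe sets lay 2-fold or more apart between them. On the second SU-DHL6 array 167 genes were at least 2-fold higher and 36 at least 2-fold lower than on the first, against 18 and 3 genes between the SU-DHL4 arrays. Among the 5 genes with the largest gaps were GADD45A, a DNA damage response gene, with 6.18 and 9.86 on the SU-DHL6 arrays, S100A10, an annexin partner, with 7.68 and 11.01, and CDKN1A, a cell-cycle inhibitor, with 8.56 and 11.37. The control probe sets for the ends of the GAPDH transcript, taken as 3′ end minus 5′ end, gave 0.08 and -0.04 on the SU-DHL4 arrays and 0.03 and 0.55 on the SU-DHL6 arrays. Those of ACTB gave -0.76 and -0.74 on the SU-DHL4 arrays and -0.58 and -0.29 on the SU-DHL6 arrays, so they did not overlap between the lines. The part of RNA quality in the differences was not tested. Nothing in the labels tells whether duplicates were grown apart, so the p-values measure the spread between duplicate arrays, which may be technical. That spread was pooled over the 11 untreated arrays, with the Daudi, Namalwa and Raji duplicates among them.

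Of the 11963 genes, 1229 (10.3%) were called, 628 (5.25%) higher and 601 (5.02%) lower in SU-DHL4. At 2-fold or more, 549 genes (4.59%) were called, 301 (2.52%) higher and 248 (2.07%) lower, and 26 genes differed at least 8-fold. The 10 pairs among the 5 lines with duplicate untreated arrays gave between 1071 and 1429 called genes, so the 1229 of SU-DHL4 and SU-DHL6 stood inside that range. The count depends on each array: it was 614 without the first SU-DHL4 array, 462 without the second, 1054 without the first SU-DHL6 array and 850 without the second. The lower calls numbered 277 and 235 without the first and the second SU-DHL4 array, and 369 without the second SU-DHL6 array. The higher calls numbered 337 and 227 without the first and the second SU-DHL4 array. With the spread taken from only the 4 arrays, 766 genes were called, 418 higher and 348 lower, and with all 22 arrays in the fit 814 were, 408 higher and 406 lower.

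On 6304 genes (52.7%) the 2 SU-DHL4 arrays did not overlap the 2 SU-DHL6 arrays, so arrays that stand apart are common here. The 12 largest higher and 12 largest lower differences were in genes of varied function, some of them genes of B cells, the cytoskeleton or the cell surface. MEF2C, a transcription factor that acts below the B-cell receptor, had 10.40 and 10.65 in SU-DHL4 and 5.59 and 6.20 in SU-DHL6, a difference of 4.63 (SE 0.25, adjusted p = 3.94e-05). HT had 9.58 for this gene, on the side of SU-DHL4. Its 2 other probe sets differed by 2.06 and 3.58, both called. TCF4, an E-protein that pairs with other helix-loop-helix factors in B cells, had 8.23 and 8.54 in SU-DHL4 and 5.36 and 5.38 in SU-DHL6, a difference of 3.01 (SE 0.18, adjusted p = 7.13e-05). Its other probe sets differed by 0.84 to 2.41, and those at 0.84 and 1.80 were not called. On the brightest probe set of both factors the lowest SU-DHL4 array stood far above the highest SU-DHL6 array.

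Surface and adhesion genes were among the largest higher differences. ITGB1, the integrin beta-1 chain that anchors cells to matrix, had 10.01 and 10.28 in SU-DHL4 and 5.59 and 7.07 in SU-DHL6 (difference 3.82, SE 0.40, adjusted p = 0.000858), but its 4 dimmer probe sets lay within 0.21 of 0 and were not called. CD99, a surface glycoprotein, had 10.67 and 11.001 in SU-DHL4 and 7.39 and 7.02 in SU-DHL6 (difference 3.63, SE 0.24, adjusted p = 0.000109), and its other probe set differed by 3.78. LRIG1, a membrane protein that restrains growth factor receptors, differed by 3.70. DCN, which encodes the matrix proteoglycan decorin, had 10.93 and 10.88 in SU-DHL4 and 7.75 and 7.96 in SU-DHL6 (difference 3.06, SE 0.11, adjusted p = 5.95e-06), and its 3 other probe sets were called higher too, by 1.47 to 3.72. The collagens that fibroblasts make beside DCN were not called: COL1A1 had 8.11 and 8.05 in SU-DHL4 and 8.17 and 8.22 in SU-DHL6.

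The other largest higher genes were TUBB6, a beta-tubulin (4.08), ZMIZ1, a transcriptional coactivator (3.87), FAIM, an inhibitor of Fas-induced cell death (3.69), FHOD3, an actin-binding formin (3.23), RAB11FIP1, a partner of Rab11 in endosome recycling (3.02), and EPB41L2, a membrane skeleton protein (2.99). TUBB6 and FHOD3 were at 5.89 and 5.93 in HT, near SU-DHL6, whereas ZMIZ1 and FAIM were at 9.82 and 7.33 in HT, near SU-DHL4.

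**Figure D1:**
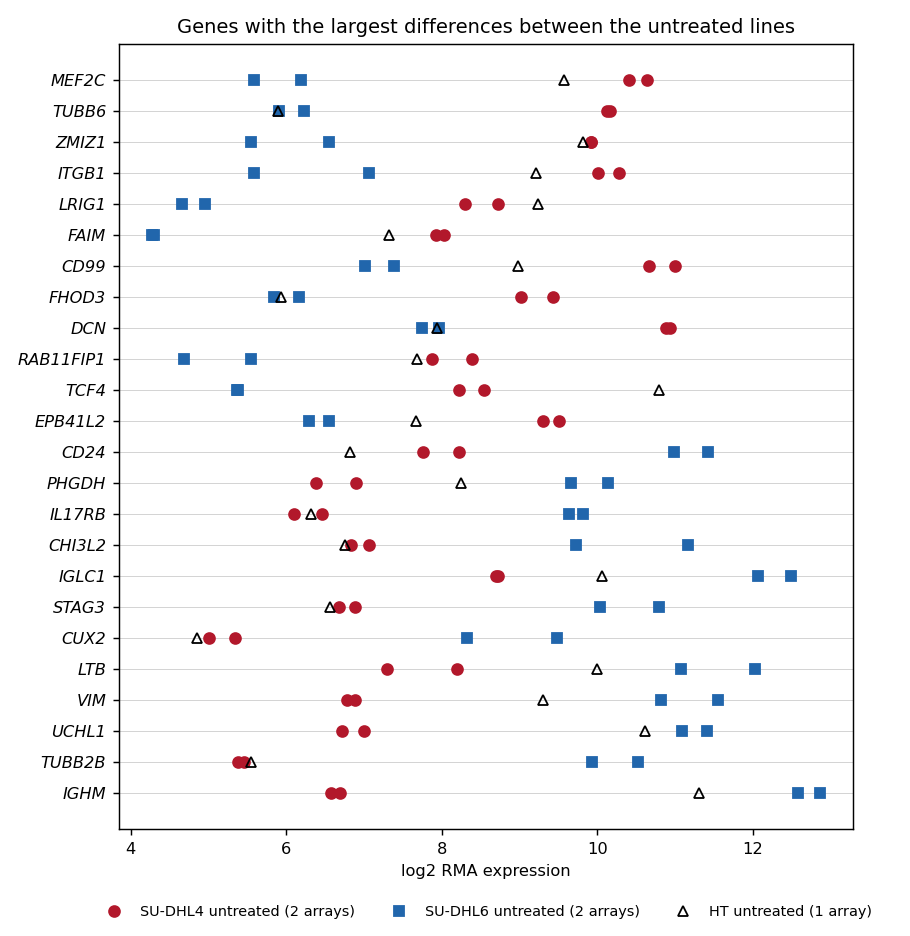
Log2 RMA expression (horizontal axis) of the 12 genes with the largest higher and the 12 with the largest lower difference, 1 gene per row. Red circles are the 2 SU-DHL4 arrays, blue squares the 2 SU-DHL6 arrays and the open triangle the single HT array. In every row the arrays of the 2 lines stand apart, which the choice of genes required, and HT lies with SU-DHL4 for some genes (MEF2C, 9.58) and with SU-DHL6 for others (TUBB6, 5.89).

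The largest difference of all was IGHM, the heavy chain constant region of IgM. It had 6.70 and 6.57 in SU-DHL4 and 12.86 and 12.58 in SU-DHL6, a difference of -6.09 (SE 0.15, adjusted p = 1.74e-06), and HT had 11.32. A second IGHM probe set differed by -5.16 and was called, and 3 others lay between -0.11 and 0.22 and were not. IGLC1, a lambda light chain constant region, had 8.73 and 8.70 in SU-DHL4 and 12.07 and 12.49 in SU-DHL6, a difference of -3.57 (SE 0.18, adjusted p = 3.25e-05). Here too 1 other probe set was called lower (-2.92) and 4 were not called. Immunoglobulin genes resemble one another, and whether a probe set read its named gene alone was not tested.

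The other 10 of the largest lower differences were genes of varied function. VIM, the intermediate filament vimentin, had 6.79 and 6.89 in SU-DHL4 and 10.82 and 11.56 in SU-DHL6 (difference -4.35, SE 0.21, adjusted p = 2.29e-05). TUBB2B, a beta-tubulin best known from the nervous system, had 5.45 and 5.39 in SU-DHL4 and 10.52 and 9.94 in SU-DHL6 (difference -4.81, SE 0.18, adjusted p = 6.79e-06). TUBB6 and TUBB2B thus lay at the opposite ends of the comparison within 1 gene family. UCHL1, a deubiquitinating enzyme, differed by -4.39, CUX2, a homeobox factor, by -3.73, STAG3, a cohesin subunit of meiosis, by -3.63, and CHI3L2, a chitinase-like protein, by -3.50. IL17RB, a receptor chain for interleukin-25, differed by -3.44, and PHGDH, the first enzyme of serine synthesis, by -3.26. LTB, the lymphotoxin beta chain, had 8.20 and 7.30 in SU-DHL4 and 12.03 and 11.08 in SU-DHL6 (difference -3.81, SE 0.34, adjusted p = 0.000452). CD24, a lipid-anchored surface protein of B cells, had 7.76 and 8.22 in SU-DHL4 and 10.99 and 11.42 in SU-DHL6 (difference -3.21, SE 0.24, adjusted p = 0.000207), and its 5 other probe sets were called lower by 2.00 to 3.49 on the log2 scale.

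Of 32 measured B-cell surface markers, 1 was called higher and 7 lower, and their median difference was -0.21, beside -0.07 over all genes. Over all genes 5.25% were called higher and 5.02% lower, and of the 5963 brighter genes placed on chromosomes 8.49% and 7.71%. These shares stand beside every list count given below. Beside CD24, FCRL2, an Fc receptor-like protein of B cells, had 6.98 and 6.88 in SU-DHL4 and 9.18 and 9.31 in SU-DHL6 (difference -2.32, SE 0.12, adjusted p = 3.65e-05). CD83, an activation marker, differed by -1.83. CD58, the adhesion partner of CD2, differed by -1.30, a call lost without the first SU-DHL4 array (difference -1.05) or the second SU-DHL6 array (-1.30). Its other probe sets were called lower at -0.71 and -0.86 and not called at -0.03 and -0.05. MME, the germinal centre marker CD10, had 9.50 and 9.83 in SU-DHL4 and 8.36 and 8.87 in SU-DHL6 and was not called (difference 1.05, SE 0.35, adjusted p = 0.111), although its dimmer probe set was called higher (2.26, adjusted p = 0.00172). Without the second SU-DHL6 array 4 of the 32 were called lower, and without the first 10 were.

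Among 27 genes of the B-cell receptor signalling chain 3 were called higher and 7 lower, with a median of 0.00 (-0.0042). BANK1, an adaptor of the receptor, had 7.30 and 7.72 in SU-DHL4 and 5.04 and 5.20 in SU-DHL6 (difference 2.39, SE 0.40, adjusted p = 0.00766), a call lost without the second SU-DHL4 array (adjusted p = 0.0719). BLK, a Src-family kinase of B cells, had 9.83 and 9.75 in SU-DHL4 and 7.85 and 8.09 in SU-DHL6 (difference 1.82, SE 0.23, adjusted p = 0.00203), and its dimmer probe set was not called (0.25). On the lower side, PRKCB, protein kinase C beta, had 6.71 and 6.89 in SU-DHL4 and 7.86 and 8.17 in SU-DHL6 (difference -1.22, SE 0.14, adjusted p = 0.00154). PTPN6, the phosphatase SHP-1, differed by -1.38 but lost its call without either SU-DHL4 array (adjusted p = 0.0503 and 0.191) or without the first SU-DHL6 array (adjusted p = 0.0706). CSK, which restrains Src-family kinases, and RASGRP3, which activates Ras in B cells, differed by -0.74 and -1.16 and kept their calls without any 1 of the 4 arrays.

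The signs in this chain did not run one way. Without the first and without the second SU-DHL4 array, 3 genes of the chain were called lower each time, and 2 and 1 were called higher. Of the 12 immunoglobulin and surrogate light chain genes, 1 was called higher and 4 lower, and the median was -0.26. Next to IGHM and IGLC1, IGLL3P, a lambda-like pseudogene, differed by -1.79 (SE 0.19, adjusted p = 0.000979). IGKC, the kappa light chain constant region, was not called by its brightest probe set (-0.31), while 1 of its 7 other probe sets was called higher (2.28) and 1 lower (-1.37). IGHD, the IgD heavy chain, differed by -1.03, a call lost without either SU-DHL4 array (differences -1.11 and -0.94) or the first SU-DHL6 array (-0.81). Another IGHD probe set had 6.06 and 5.82 in SU-DHL4 and 9.10 and 9.70 in SU-DHL6 (difference -3.46, limma adjusted p = 0.000291). A further one was called lower (-0.85), and the last was not called (-0.31).

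Of 23 B-lineage transcription factors 3 were called higher and 2 lower, with a median of 0.24. MEF2C and TCF4 led the higher calls. TCF12, a further E-protein, had 9.11 and 9.30 in SU-DHL4 and 7.35 and 8.12 in SU-DHL6 (difference 1.47, SE 0.25), and was not called without the second SU-DHL4 array (difference 1.38). Its dimmer probe set was not called (0.03). IRF4, which drives B cells towards the plasma cell state, had 6.60 and 6.57 in SU-DHL4 and 9.26 and 8.57 in SU-DHL6 (difference -2.33, SE 0.21, adjusted p = 0.000452). HT had 6.84 for IRF4, near SU-DHL4, and the 2 dimmer probe sets of IRF4 were not called. BCL6, the master repressor of the germinal centre, had 11.005 and 11.22 in SU-DHL4 and 10.49 and 10.63 in SU-DHL6 and was not called (difference 0.55, SE 0.45, adjusted p = 0.55), although its dimmer probe set was called higher (1.55, adjusted p = 0.0181). PAX5, which holds B-cell identity, lay between 9.64 and 9.86 on all 4 arrays.

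Of 26 germinal centre genes 4 were called higher and 1 lower, with a median of 0.20. ITPKB, an inositol phosphate kinase, had 8.31 and 8.24 in SU-DHL4 and 7.11 and 7.12 in SU-DHL6 (difference 1.16, SE 0.12, adjusted p = 0.000948). GNA13, the G-protein chain that confines germinal centre B cells, had 9.13 and 9.86 in SU-DHL4 and 8.14 and 7.14 in SU-DHL6 (difference 1.85, SE 0.36, adjusted p = 0.0152), and STAP1, an adaptor of B cells, differed by 1.11. The call of GNA13 was lost without the second SU-DHL4 array (adjusted p = 0.122) or the second SU-DHL6 array (adjusted p = 0.0624), and that of STAP1 without either SU-DHL4 array (adjusted p = 0.0613 and 0.143) or the first SU-DHL6 array (adjusted p = 0.0827). Against the sign of these, LMO2, a germinal centre marker, had 7.18 and 6.48 in SU-DHL4 and 8.61 and 9.36 in SU-DHL6 (difference -2.16, SE 0.34, adjusted p = 0.00623). LMO2 was not called without the second SU-DHL4 array (adjusted p = 0.0576). The germinal centre list as a whole thus held calls of both signs, and 1 gene of it was called higher without the second SU-DHL4 array and 2 without the first.

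Of 26 activated B-cell genes, 0 were called higher and 6 lower, and the median was -0.18. PIM1, a survival kinase, had 7.08 and 7.11 in SU-DHL4 and 8.96 and 9.32 in SU-DHL6 (difference -2.05, SE 0.21, adjusted p = 0.000855). SPINK2, a protease inhibitor, differed by -1.25 (SE 0.19, adjusted p = 0.00547). BATF, an AP-1 family factor, had 6.71 and 6.82 in SU-DHL4 and 8.81 and 7.62 in SU-DHL6 (difference -1.45), a call lost without either SU-DHL4 array (adjusted p = 0.124 and 0.125). IRF4 and PIM1 lie on the stretch of chromosome 6 described below. Of the 24 members elsewhere, 4 were called lower. Leaving out any 1 array left 4 lower calls.

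The 22 plasma cell genes had 2 higher and 3 lower calls. CD59, a membrane shield against complement, had 9.32 and 9.28 in SU-DHL4 and 7.17 and 7.24 in SU-DHL6 (difference 2.09, SE 0.14, adjusted p = 0.000118), and all 3 other probe sets were called higher. EDEM1, which sorts misfolded proteins for disposal, differed by -1.32 (SE 0.19, adjusted p = 0.00394). TNFRSF17, the receptor BCMA, had 8.55 and 8.90 in SU-DHL4 and 9.73 and 9.98 in SU-DHL6 and was not called (difference -1.13, SE 0.32, adjusted p = 0.0658). Calls of both signs therefore stood among the plasma cell genes too, beside 5.25% of all genes called higher and 5.02% lower.

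All but 1 of the antigen presentation genes called were lower in SU-DHL4, and most of them lie close together on chromosome 6. Of 15 MHC class II genes, 0 were called higher and 7 lower, with a median of -0.22. HLA-DPA1, the alpha chain of HLA-DP, had 9.62 and 9.49 in SU-DHL4 and 12.19 and 11.83 in SU-DHL6 (difference -2.46, SE 0.14, adjusted p = 5.52e-05). HLA-DMB, a chain of the peptide loader HLA-DM, had 9.61 and 9.57 in SU-DHL4 and 11.32 and 11.39 in SU-DHL6 (difference -1.77, SE 0.10, adjusted p = 5.69e-05). HLA-DRB4, a beta chain that only some people carry, differed by -2.52, and its other probe sets were not called (-0.18 and -0.004). HLA-DQB1 differed by -1.42 and was not called without the second SU-DHL4 array (adjusted p = 0.0958), and 4 of its 6 other probe sets were not called.

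Other class II genes did not pass the test. HLA-DPB1, HLA-DQA1 and HLA-DOA differed by 0.11, 0.07 and 0.09. CIITA, the transactivator of the class II genes, had 7.30 and 7.28 in SU-DHL4 and 7.39 and 7.26 in SU-DHL6 (difference -0.03, SE 0.11, adjusted p = 0.908). CD74, the invariant chain, RFX5 and RFXAP, which bind class II promoters, differed by 0.30, 0.41 and 0.75. So the 4 class II genes outside the chromosome 6 stretch gave 0 calls with limma, 3 having an unadjusted p under 0.05, and the 11 inside it gave all 7. Without the second SU-DHL4 array 4 of the 15 were called lower.

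Of 14 genes of MHC class I presentation, 1 was called higher and 7 lower, with a median of -0.68. HLA-C had 8.83 and 8.90 in SU-DHL4 and 11.58 and 11.52 in SU-DHL6 (difference -2.68, SE 0.13, adjusted p = 2.18e-05). HLA-B had 9.18 and 9.22 in SU-DHL4 and 11.42 and 11.93 in SU-DHL6 (difference -2.47, SE 0.16, adjusted p = 8.75e-05), and HLA-E differed by -2.14. HT had 11.88 for both HLA-B and HLA-C, on the side of SU-DHL6. The 7 other probe sets of HLA-B, HLA-C and HLA-E were called lower as well. B2M, the light chain shared by class I molecules and encoded on another chromosome, differed by -0.02 and was not called. TAP2, a peptide transporter chain on the same stretch as the HLA genes, differed by 1.03, the 1 higher call. That call was lost without the first SU-DHL4 array or the first SU-DHL6 array, and the other TAP2 probe sets (1.49 and -0.27) were not called. PSMB10, an immunoproteasome subunit outside the stretch, differed by -1.29 and lost its call without either SU-DHL4 array (adjusted p = 0.0846 and 0.118) or the first SU-DHL6 array (adjusted p = 0.0651). HLA genes differ in sequence between people, and the match of the probes to the alleles of each line was not tested.

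**Figure D2:**
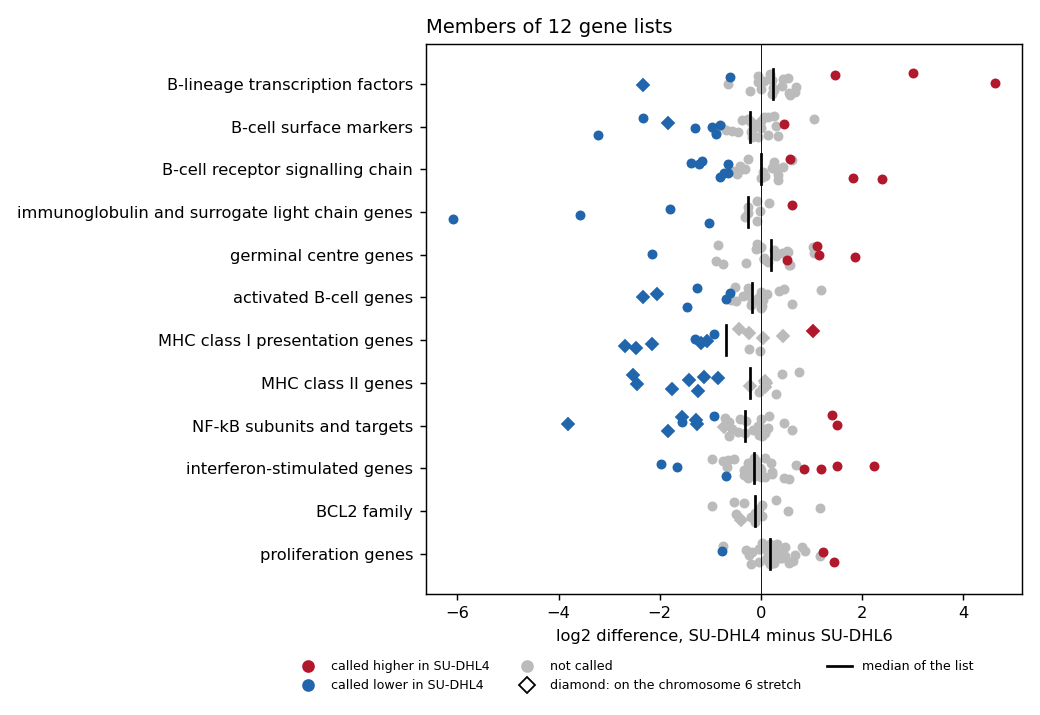
Log2 differences, SU-DHL4 minus SU-DHL6, of the measured members of 12 gene lists, 1 list per row. Red points were called higher in SU-DHL4, blue points called lower and grey points not called, diamonds mark genes on the chromosome 6 stretch, and black bars are list medians. The blue points of the MHC class II list are all diamonds, and those of the activated B-cell list are a mixture.

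Of 30 NF-kB subunits and targets, 2 were called higher and 7 lower, and the median was -0.31. LTB led this list. NFKBIA, the inhibitor that NF-kB itself induces, had 8.66 and 8.54 in SU-DHL4 and 9.95 and 10.36 in SU-DHL6 (difference -1.55, SE 0.23, adjusted p = 0.00441). TNFAIP3, the deubiquitinase A20 that ends NF-kB signals, had 6.79 and 6.91 in SU-DHL4 and 7.76 and 7.80 in SU-DHL6 (difference -0.93). TNF and LTA differed by -1.55 and -1.26, and NFKBIE, a further inhibitor, by -1.29. TNF was not called without the second SU-DHL4 array (adjusted p = 0.0793), and LTA lost its call without either SU-DHL4 array (adjusted p = 0.0744 and 0.0902) or the second SU-DHL6 array (adjusted p = 0.0543). TRAF3, which holds back the alternative NF-kB pathway, had 7.97 and 7.85 in SU-DHL4 and 6.47 and 6.55 in SU-DHL6 (difference 1.40, SE 0.12). Its dimmer probe set was not called (0.49). JUNB, an AP-1 factor, was the other higher call (1.51), and it was lost without any 1 of the 4 arrays (adjusted p = 0.0847 to 0.174). The subunits NFKB1, NFKB2, REL, RELA and RELB were not called, with differences of 0.45, -0.64, 0.01, -0.42 and -0.71, although another probe set of NFKB2 was called lower (-1.20, adjusted p = 0.00423).

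Of the 7 lower calls of that list, CD83, LTA, LTB, NFKBIE and TNF lie on the chromosome 6 stretch, and NFKBIA and TNFAIP3 do not. Over the 24 members elsewhere 2 were called higher and 2 lower, and the median was -0.05, close to the -0.07 of all genes. Since LTB, NFKBIA and TNFAIP3 are targets of NF-kB, the promoters of the list members from the RefSeq table of build GRCh38.p14 were searched on both strands for the NF-kB consensus. Each promoter ran from 250 bases before to 50 bases after the gene start. The consensus stood in 9 of the 22 list members with an entry, against 8.89% of the 9508 measured genes with one. The list was made of NF-kB subunits and targets, so this excess follows from its choice and does not bear on the 2 lines. Of the 6 members called lower with an entry, LTB, NFKBIA and TNFAIP3 held it, and TRAF3 held it among the 2 called higher. CD83, TNF and LTA, called lower too, did not hold it. The promoters of these genes and of TRAF3 are not printed. The 3 promoters of lower genes are printed with the matches in capitals, LTB from chr6:31582376-31582675 on the minus strand, NFKBIA from chr14:35404700-35404999 on the minus strand, and TNFAIP3 from chr6:137867009-137867308 on the plus strand.
LTB: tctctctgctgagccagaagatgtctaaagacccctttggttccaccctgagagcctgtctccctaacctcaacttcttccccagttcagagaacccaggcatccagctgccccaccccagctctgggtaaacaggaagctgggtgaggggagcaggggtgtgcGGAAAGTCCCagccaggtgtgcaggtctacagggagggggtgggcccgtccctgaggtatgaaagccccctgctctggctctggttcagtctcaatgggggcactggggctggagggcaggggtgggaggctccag
NFKBIA: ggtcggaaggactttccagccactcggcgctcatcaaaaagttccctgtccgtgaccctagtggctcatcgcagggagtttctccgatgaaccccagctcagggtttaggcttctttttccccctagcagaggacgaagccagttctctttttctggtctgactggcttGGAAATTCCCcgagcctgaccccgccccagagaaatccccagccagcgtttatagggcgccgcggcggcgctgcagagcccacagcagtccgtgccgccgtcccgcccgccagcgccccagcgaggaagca
TNFAIP3: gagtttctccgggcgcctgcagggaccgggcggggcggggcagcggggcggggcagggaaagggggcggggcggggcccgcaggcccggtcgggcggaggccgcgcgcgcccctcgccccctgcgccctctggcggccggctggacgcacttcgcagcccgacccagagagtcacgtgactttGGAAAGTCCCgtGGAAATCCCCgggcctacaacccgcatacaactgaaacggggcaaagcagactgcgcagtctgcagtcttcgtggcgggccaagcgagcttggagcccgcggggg
The match began 86 bases before the gene start in LTB and 81 before it in NFKBIA, and TNFAIP3 held 2, at 67 and 55 bases before its start. A match describes letters in the window only and does not show binding in either line.

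Other signalling lists held fewer calls. Of 25 TNF ligands and receptors 0 were called higher and 4 lower, of which 1, CD70 (-0.97), lay outside the chromosome 6 stretch, where 21 were measured. CD70 was not called without the second SU-DHL4 array (adjusted p = 0.0877) or the second SU-DHL6 array (adjusted p = 0.0692). Of 38 interferon-stimulated genes 4 were called higher and 3 lower, with a median of -0.13. ISG15, a ubiquitin-like protein, had 9.03 and 9.22 in SU-DHL4 and 6.76 and 7.04 in SU-DHL6 (difference 2.23, SE 0.42, adjusted p = 0.0137), while MX2, an antiviral GTPase, had 7.19 and 7.38 in SU-DHL4 and 8.69 and 9.84 in SU-DHL6 (difference -1.98, SE 0.30, adjusted p = 0.00545). ISG20, an exonuclease, differed by 1.51. IRF7, which switches on interferon genes, differed by -1.65. The call of ISG15 was lost without either SU-DHL4 array (adjusted p = 0.0654 and 0.103) or the first SU-DHL6 array (adjusted p = 0.0577). That of ISG20 was lost without the second SU-DHL4 array (adjusted p = 0.0527), and that of IRF7 without that array (adjusted p = 0.097) or the second SU-DHL6 array (adjusted p = 0.0609). Calls of both signs thus stood on the interferon list, beside 5.25% of all genes called higher and 5.02% lower.

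Of 24 JAK-STAT genes 1 was called higher and 3 lower. IL10RA, the binding chain of the interleukin-10 receptor, had 6.28 and 6.57 in SU-DHL4 and 8.65 and 8.64 in SU-DHL6 (difference -2.22, SE 0.13, adjusted p = 5.97e-05), and HT was higher still at 10.73. IL2RG, the common cytokine receptor chain, and IL4R differed by -1.63 and -0.999. STAT5B differed by 1.39, with both other probe sets called higher. Without the second SU-DHL4 array IL2RG (adjusted p = 0.0668) and STAT5B (adjusted p = 0.0513) were not called, and IL4R lost its call without the first SU-DHL4 array (adjusted p = 0.0875) or the second SU-DHL6 array (adjusted p = 0.0687).

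Survival and growth were read on several lists. Of 15 BCL2 family genes 0 were called with limma, and 1 higher and 4 lower ones had an unadjusted p under 0.05. BCL2, the survival gene that many germinal centre lymphomas overexpress, had 7.24 and 6.84 in SU-DHL4 and 7.55 and 6.91 in SU-DHL6 (difference -0.19, SE 0.28, adjusted p = 0.772). BID, a death-promoting member, had 9.26 and 9.49 in SU-DHL4 and 8.70 and 7.71 in SU-DHL6 (difference 1.17, adjusted p = 0.0537), while its dimmer probe set was called higher (1.65, adjusted p = 0.00612). Of 25 p53 targets and cell-cycle inhibitors 1 was called higher and 1 lower, the lower one, CDKN1A, on the chromosome 6 stretch described below. CDKN1A, the inhibitor p21, had 7.40 and 6.89 in SU-DHL4 and 8.56 and 11.37 in SU-DHL6 (difference -2.82, SE 0.71, adjusted p = 0.0433), so the second SU-DHL6 array stood apart, and the call was lost without either SU-DHL4 array (adjusted p = 0.124 and 0.24). FAS, the death receptor, was not called (-0.57, adjusted p = 0.337).

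Of 40 proliferation genes 2 were called higher and 1 lower, with a median of 0.19, and of 25 MYC target and ribosome biogenesis genes 1 and 0, with a median of 0.17. Over all genes 5.25% were called higher and 5.02% lower, so these lists did not stand out by their calls. At an unadjusted limma p under 0.05, 6 proliferation genes were higher and 2 lower, and 8 MYC target and ribosome biogenesis genes were higher and 0 lower. The share of all genes with such a p is not given here, and the median over all genes was -0.07. MYC, a transcription factor that drives growth, had 10.96 and 11.16 in SU-DHL4 and 10.22 and 9.22 in SU-DHL6 (difference 1.33, SE 0.29, adjusted p = 0.0246). Its call was lost without either SU-DHL4 array (adjusted p = 0.0875 and 0.16) or the second SU-DHL6 array (adjusted p = 0.0536). CCNA2, cyclin A2, and MAD2L1, a spindle checkpoint gene, differed by 1.45 and 1.23. CCNA2 was not called without any 1 of the 4 arrays (adjusted p = 0.0881 to 0.25), and MAD2L1 was not called without either SU-DHL4 array (adjusted p = 0.069 and 0.0808) or the second SU-DHL6 array (adjusted p = 0.053).

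Of 15 D-type cyclins and cell-cycle kinases, 1 was called higher and 2 lower. CCND3, cyclin D3, had 9.09 and 9.17 in SU-DHL4 and 10.55 and 10.85 in SU-DHL6 (difference -1.57, SE 0.19, adjusted p = 0.00208), and it too lies on the chromosome 6 stretch. WEE1, a kinase that delays mitosis, had 9.95 and 9.61 in SU-DHL4 and 11.24 and 11.19 in SU-DHL6 (difference -1.43, SE 0.24), not called without the second SU-DHL4 array (adjusted p = 0.0758). E2F2 differed by 1.22 and was not called without any 1 of the 4 arrays (adjusted p = 0.0806 to 0.175). EZH2, the Polycomb methyltransferase, had 8.62 and 8.95 in SU-DHL4 and 8.68 and 8.77 in SU-DHL6 (difference 0.06, SE 0.15, adjusted p = 0.876). Of 24 Polycomb and chromatin genes 1 was called higher and 2 lower, the median was 0.00 (-0.0016), and the 4 largest differences lay between 0.53 and 0.82. The lower calls were RING1 (-0.50), which lies on the chromosome 6 stretch, and HDAC3 (-0.45). HDAC3 was not called without any 1 of the 4 arrays. With 1 array left out, RING1 kept its call only without the first SU-DHL6 array. PHC2, the higher call, was not called without any 1 of the 4 arrays (adjusted p = 0.103 to 0.228).

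Of the 27 genes on a list of S100 proteins, annexins, galectins and VIM, 3 were called higher and 2, VIM and LGALS3, lower. S100A4, a calcium-binding protein of motile cells, had 8.09 and 8.87 in SU-DHL4 and 6.48 and 6.53 in SU-DHL6 (difference 1.97, SE 0.25, adjusted p = 0.00209). LGALS3, galectin-3, had 6.35 and 6.49 in SU-DHL4 and 8.64 and 8.60 in SU-DHL6 (difference -2.20, SE 0.13, adjusted p = 6.8e-05). S100A10 differed by -2.62 but was not called (adjusted p = 0.0986), since the SU-DHL6 arrays had 7.68 and 11.01. NOTCH2, a receptor of marginal zone B cells, had 6.25 and 6.35 in SU-DHL4 and 7.87 and 8.07 in SU-DHL6 (difference -1.68, SE 0.11, adjusted p = 8.75e-05). The gene also had a dimmer probe set called lower (-1.35) and others not called (-0.06 and -0.36). It was the lower call of the 17 Notch pathway genes, and MFNG, a sugar transferase that modifies Notch, was the higher one (0.65), lost without any 1 of the 4 arrays (adjusted p = 0.0514 to 0.271). Of 25 RGS and G-protein signalling genes 2 were called higher and 1 lower. RGS2, a brake on G-protein signals, had 7.13 and 6.96 in SU-DHL4 and 8.97 and 11.08 in SU-DHL6 (difference -2.98, SE 0.64, adjusted p = 0.0235). That call was lost without either SU-DHL4 array (adjusted p = 0.0996 and 0.141) or the second SU-DHL6 array (adjusted p = 0.0642). RGS1, of the same family, and GPR18, a G-protein-coupled receptor, differed by -2.81 and 2.55 and were not called (adjusted p = 0.103 and 0.125).

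Metabolic lists were mixed. Of 19 cholesterol and fatty acid synthesis genes 2 were called in each direction. ACSL1, which activates fatty acids, had 8.46 and 8.75 in SU-DHL4 and 6.42 and 6.88 in SU-DHL6 (difference 1.96, SE 0.19, adjusted p = 0.000729), and its other probe set differed by 2.85. FDPS, an enzyme of the sterol pathway, differed by -0.89 (SE 0.12, adjusted p = 0.00261). SQLE, squalene epoxidase, differed by -0.79, and lost its call without either SU-DHL4 array (differences -0.74 and -0.84) or the second SU-DHL6 array (-0.67). Its other probe sets, both at -0.54, were not called. ELOVL6, a fatty acid elongase, differed by 1.44 and was not called without the second SU-DHL4 array (adjusted p = 0.0859). Of 20 glycolysis genes 2 were called higher and 1 lower. PFKM, phosphofructokinase, differed by 0.82 (SE 0.11, adjusted p = 0.00345), and ALDOC, an aldolase, had 7.46 and 7.35 in SU-DHL4 and 8.85 and 10.50 in SU-DHL6 (difference -2.27), a call lost without either SU-DHL4 array (adjusted p = 0.0651 and 0.0908). Of 22 chemokines and receptors and 8 metallothionein genes 0 were called with limma, and 2 and 1 had an unadjusted p under 0.05. CXCR5, the homing receptor of follicular B cells, differed by -0.50 (adjusted p = 0.288), and its dimmer probe set was called lower (-1.63, adjusted p = 0.00438). Of 26 cancer-testis and germline genes 1 was called, CCNA1, a germline cyclin (0.46), which was not called without any 1 of the 4 arrays (adjusted p = 0.0648 to 0.249).

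The differences were uneven along the chromosomes. The 5963 genes at or above a mean level of 7.14 that could be placed were cut, in RefSeq order, into 138 blocks of 40 to 64 neighbours. Of these genes 8.49% were called higher and 7.71% lower. The first 5 blocks of chromosome 6, from DUSP22 to CD2AP, held 207 genes with a median of -0.57. In that stretch 86.0% of the genes were below 0, 88 genes (42.5%) were called lower and 2 higher. The median was -0.43 to -0.72 in each of the 4 pairings of a single SU-DHL4 array with a single SU-DHL6 array. The other 123 placed genes of chromosome 6 had a median of -0.02, with 13 called lower and 10 higher. Set against the mean of the other lines, the stretch had a median of -0.11 in SU-DHL4 and 0.44 in SU-DHL6, so SU-DHL6 was the line farther from the others there.

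The first block of chromosome 8, from ARHGEF10 to PBK, ran the other way. Its 41 genes had a median of 0.82, with 25 (61.0%) called higher and 0 lower. BLK lies in this block. Against the mean of the other lines the block had a median of 0.34 in SU-DHL4 and -0.30 in SU-DHL6. The other 132 blocks had medians between -0.37 and 0.58. Among whole chromosomes, 18 had 27.4% and 4 had 25.8% of their placed genes called higher, with medians of 0.25 and 0.26. Both stretches were picked after the block values were seen, and DNA copy number was not measured.

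**Figure D3:**
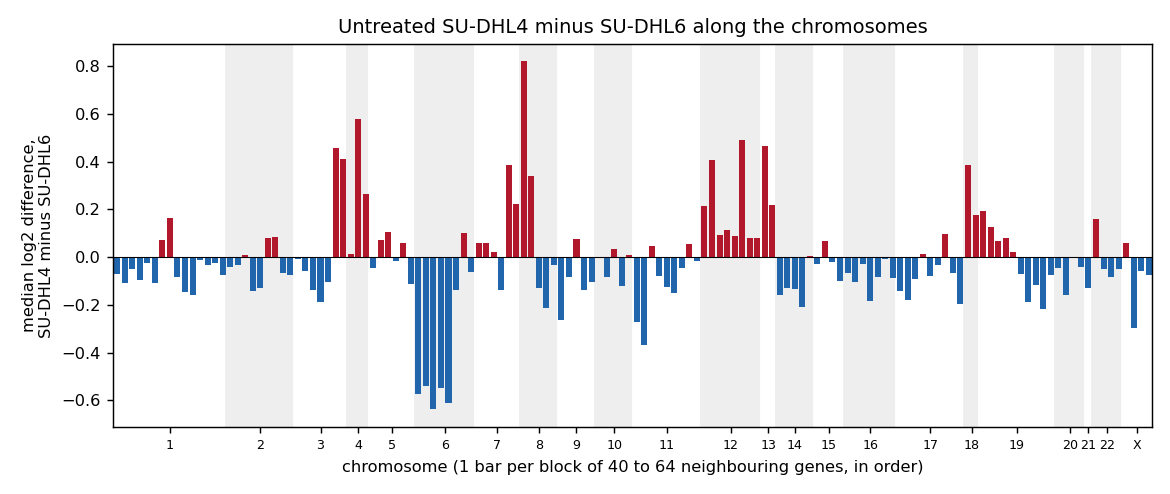
Median log2 difference, SU-DHL4 minus SU-DHL6 (vertical axis), of 138 blocks of 40 to 64 neighbouring genes in order along chromosomes 1 to 22 and X (horizontal axis), 1 bar per block. The first 5 blocks of chromosome 6 lie below the rest of that chromosome (median of their genes -0.57), and the first block of chromosome 8 is the tallest bar (0.82).

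Counted over all levels, the chromosome 6 stretch held 377 genes, 3.15% of those measured, and 98 of the 601 lower calls, 16.3%. Of the 12 largest lower genes TUBB2B and LTB lie in it, and CD24 lies elsewhere on chromosome 6. Without the genes of the stretch 1128 genes were called, 625 higher and 503 lower.

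The 2 lines were also placed beside the 4 other lines. For 142 of the 549 genes called at 2-fold or more, SU-DHL4 alone lay beyond the means of all 4 other lines, HT and the 3 Burkitt lines. For 187 genes SU-DHL6 alone did, for 162 both did, on opposite sides, and for 58 neither did. The 549 genes were picked for a large difference between SU-DHL4 and SU-DHL6, and that choice itself favours positions beyond the other lines. The same shares over all genes were not counted, so these counts are described only. The HT array was nearer to SU-DHL4 for 312 of the 549 genes and nearer to SU-DHL6 for 237. IGHM and IRF4 show the 2 positions of HT: it had 11.32 for IGHM, nearer to SU-DHL6, and 6.84 for IRF4, nearer to SU-DHL4. For IGHM SU-DHL4 alone lay beyond the 4 other lines, and for IRF4 both lines did.

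The same contrast was fitted on the arrays of drug-treated cells, where 333 genes (2.78%) were called between SU-DHL4 and SU-DHL6. The treated arrays were noisier and more compressed. Over the 549 genes called at 2-fold or more in untreated cells, the median SE of the difference was 0.29 in treated and 0.21 in untreated cells. The interquartile range of all probe sets on an array of the 2 lines was 1.93 to 2.19 in treated and 2.39 to 2.58 in untreated cells. Of the 1229 genes called in untreated cells, 912 (74.2%) kept their sign, against 50.5% of all genes. Of the 549 genes at 2-fold or more, 436 (79.4%) kept it. The median absolute difference of these 549 was 0.46 in treated and 1.40 in untreated cells, and 93 of them were 2-fold or more apart in the same direction in treated cells, where 45 were called in it. A smaller difference is expected on new arrays for genes picked for a large one, and the part of that, or of the noise and compression, in the lower values was not tested.

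Single genes went different ways in this respect. MEF2C differed by 0.30 in treated cells, where SU-DHL4 had 6.92 and 6.78 and SU-DHL6 had 6.29 and 6.81, against 4.63 in untreated cells. IGHM differed by -1.40 (SE 0.76) and DCN by 0.02, neither called there. HLA-DPA1 differed by -2.29, close to its untreated difference of -2.46, and CD24 by -2.85, against -3.21 in untreated cells. Both were called in treated cells, with adjusted p of 0.0282 and 0.0457. VIM and UCHL1 differed by -2.17 and -2.76 there and were called too (adjusted p = 0.035 and 0.0341), and TUBB2B differed by -2.63 with an SE of 1.002 and was not called (adjusted p = 0.184). The chromosome 6 stretch had a median of -0.49 in treated cells, and the chromosome 8 block 0.47. The background was lower there too: the treated median was -0.14 over all placed genes, against -0.04 in untreated cells. It was -0.27 over the other placed genes of chromosome 6, against -0.02 in untreated cells, and -0.30 over those of chromosome 8. A block elsewhere, from NBN to NTAQ1 on chromosome 8, had -0.70, so low treated medians were not particular to the stretch.

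**Figure D4:**
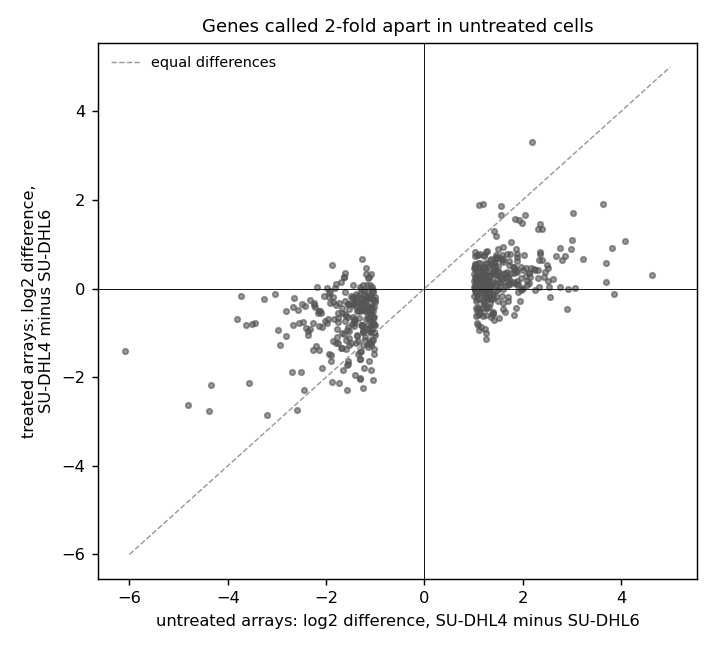
Log2 difference SU-DHL4 minus SU-DHL6 in treated cells (vertical axis) against that in untreated cells (horizontal axis), for 546 of the 549 genes called 2-fold or more apart in untreated cells, leaving out 3 Y-linked genes or X-inactivation RNAs. Each point is 1 gene, the points come from 4 treated and 4 untreated arrays, and the dashed line marks equal differences. Most points lie nearer to 0 on the treated axis, with medians of 0.46 and 1.40 in absolute value over all 549.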

How the data were processed

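Per the labels, RNA was hybridised to Affymetrix HG-U133A arrays. The authors deposited log2 values made by RMA, and the submitters' processing notes name RMA and R 2.10.1. Probe-level files were not used here. Of 22283 probe sets, 68 controls were left out, and 19065 with 1 symbol (1043 had several, 2107 none) were tested. No genome build is given in the sources used here, so RefSeq (GRCh38.p14) served for names, gene order and promoters alone.

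The 11 untreated arrays were fitted with 6 group means in limma 3.58.1 under R 4.3.3, with eBayes moderation, two-sided tests and Benjamini-Hochberg adjustment over 19065 probe sets at a threshold of 0.05, and the 11 treated arrays likewise. The fit was run on simulated data with independent noise on each array. That run checks the code and not the error rate of the calls reported here. Arrays carry no read depth, and their number limits the precision. Named genes were the 12 largest called differences per direction with arrays of the lines apart, up to 4 members per list and 10 set genes, of which 9 were measured. Other members were added after their values were seen. Y-linked genes and X-inactivation RNAs are not named. Members, lists and tests were chosen with earlier results of these data known. Replicate numbers were not taken to pair samples. Correlations of same-numbered deviations ran from -0.454 to 0.473 over 10 line pairs, which cannot decide whether arrays were processed together. Alternatives covered the arrays in the fit, normalization, dim probe sets, the probe set per gene, the prior and each array left out.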

Additional observations from a re-analysis of the deposited data

Results flagged for a closer look

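For 5 of the 84 named genes called in untreated cells, both SU-DHL4 arrays lay on one side of both SU-DHL6 arrays in untreated cells and on the other side in treated cells. The share of such genes over all 11963 was not counted, so the 5 are described only. In untreated cells alone the arrays of the lines did not overlap on 52.7% of all genes. Whether the untreated and the treated difference of a gene differ was not tested. STAP1 differed by -0.94 in treated cells (SE 0.57, not called there), against 1.11 in untreated cells. LTA differed by 0.66 in treated cells, against -1.26 in untreated cells. IL2RG differed by 0.27 and IL4R by 0.16 in treated cells, against -1.63 and -0.999 in untreated cells. ZMAT3, a p53 target, differed by -0.13 in treated cells, against 0.81 in untreated cells, an untreated call that was lost without the first SU-DHL4 array (adjusted p = 0.165), the first SU-DHL6 array (adjusted p = 0.122) or the second SU-DHL6 array (adjusted p = 0.0601).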

How the results depend on the processing

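The 15 alternatives gave 1258 values for the 84 called named genes; 0 changed sign, 131 lost the call, and 47 genes kept it throughout. With only the 4 arrays 766 genes were called, 418 higher and 348 lower. The 5 untreated DLBCL arrays gave the same fit, since the single HT array has its own mean and adds nothing to the spread. It is thus 1 fit entered as 2 of the 15 alternatives, and its 16 lost calls stand in the 131 under both. All 22 arrays gave 814 called, 408 higher and 406 lower. These fits differ from the main one in the arrays that set the spread. Leaving out 1 of the 4 arrays gave 462 to 1054 called genes, 227 to 481 higher, 235 to 599 lower, 360 to 620 at 2-fold or more, and 51 to 109 called list members, against 104 with all 4. The share of calls that were higher ran from 43.2% without the first to 56.6% without the second SU-DHL6 array, against 51.1%. The share of called genes with the same sign in treated cells was 74.0% to 80.7% with 1 array left out, 76.7% with all 22 arrays and 71.4% with the mean of each gene's probe sets, against 74.2%; the cause was not tested. With the replicate number as a block 1172 genes were called, 601 higher and 571 lower, and 2 of the 84 genes lost the call. The correlation of same-numbered deviations was 0.205 between the 2 lines, and the numbers were not taken to pair the arrays. Centring, quantile, loess, dim-probe and prior alternatives kept the counts within 1.5 times the main ones. The count without the chromosome 6 stretch, 1128, and the list counts without single arrays were added after seeing the data. With 2 arrays per line, small differences were not detectable.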

Other observations

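Of 13 genes known to respond to low oxygen, 8 were at least 2-fold higher on the second than on the first SU-DHL6 array and 2 were lower, while 167 of all 11963 genes were at least 2-fold higher there. The 13 were drawn up after these values were seen, so the count describes them and supports nothing. BNIP3, a mitophagy gene, had 7.91 and 8.33 in SU-DHL4 and 7.28 and 8.93 in SU-DHL6, and ENO2, an enolase, had 6.23 and 7.03 in SU-DHL4 and 5.74 and 7.45 in SU-DHL6. AK4, an adenylate kinase, had 6.06 and 6.30 in SU-DHL4 and 7.52 and 9.20 in SU-DHL6, the difference between the lines being -2.18 (limma, adjusted p = 0.0236). Others differed little between the SU-DHL6 arrays: EGLN3 had 4.96 and 5.07 there, PDK1 had 6.87 and 6.83, and NDRG1 had 6.79 and 6.76. The growth conditions of the single cultures were not given.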
